A study of Mus musculus with 12 samples.

Results

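The genes that encode neurotransmitter receptors were examined in low-input RNA-seq (lcRNA-seq) libraries of 3 cell types from the mouse dentate gyrus (DG). The group was defined by the start of the symbol of protein-coding genes and covers receptors for glutamate, GABA, acetylcholine, serotonin, adrenaline and noradrenaline, and dopamine. The symbols left out the GABA receptor genes Gabrp and Gabrr1 to Gabrr3 and took in 1 gene of a receptor-binding protein, which was below the count minimum. Of the 50600 genes in the count table, 93 had such a symbol. Of these, 42 reached 10 counts in 4 or more of the 12 libraries and are the members described here, while 51 fell below this minimum. The same minimum was reached by 16119 genes in all.

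Ionotropic receptors are ion channels built from several subunits, and the subunits that a cell transcribes decide which channels it can assemble. AMPA, kainate and NMDA receptors respond to glutamate and pass cations, whereas GABA-A receptors are chloride channels made of alpha and beta subunits, usually with a gamma subunit. Metabotropic glutamate, GABA-B, muscarinic, adrenergic and most serotonin receptors instead act through G proteins. In the DG, glutamate and GABA reach neural stem cells, their dividing progeny and astrocytes as well as neurons, and GABA is known to depolarize young cells of the neurogenic lineage.

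All cells came from adult Nestin-GFP mice, so that the 3 cell types shared 1 genotype. In this reporter strain, GFP is driven by regulatory sequence of the Nestin gene. The design held no treatment groups, but the study's methods say that the mice were anesthetized with ketamine and xylazine before perfusion. Live cells without the endothelial, leukocyte and oligodendrocyte lineage antigens CD31, CD45, O1 and O4 were sorted by GFP and by GLAST, a glutamate transporter encoded by Slc1a3. Stem cells carried GFP and GLAST, progenitors carried GFP alone and astrocytes carried GLAST alone, with 4 libraries of 50 cells for each cell type. The study describes the libraries as biological replicates and says that a single mouse brain is enough for each, but which libraries of different cell types shared a mouse is not given in the sources used here. P-values measure the spread between these libraries. Sex and strain background are likewise not given in the sources used here. Stem cell libraries are numbered 1 to 4 as in the count table, and astrocyte and progenitor libraries, which carry no number there, are called a to d.

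Library totals were between 5357232 and 6253680 counts in astrocytes, 9041498 and 12535028 in progenitors and 5031166 and 10435711 in stem cells. Levels are given as CPM, the count of a gene relative to the TMM-scaled library total, where 3 counts correspond to between 0.206 and 0.639 CPM. Lists of marker genes were summed in CPM to examine the labels. The 7 astrocyte markers summed to 13240 to 17180 in astrocytes and 19310 to 26090 in stem cells but 5982 to 7848 in progenitors. The 7 markers of progenitors and immature neurons, such as Dcx and Eomes, reached 681 to 1495 in progenitors, against at most 294 in astrocytes and 55.5 in stem cells. In stem cells, the 7 radial glia-like markers summed to 790 to 1059, above both other cell types, but only 3 of them had 10 counts in all 4 libraries, and Nes itself, the gene behind the reporter, was at 0.521 CPM or less. Markers of other cell types also differed between the groups. The 6 oligodendrocyte precursor markers were all above 10 counts in every progenitor library and summed to 1925 to 3202, against 43.1 to 321 in astrocytes and 63.7 to 144 in stem cells. The 6 mural cell markers summed to 2092, 39.5, 2149 and 923 in progenitor libraries a to d, and to at most 192 in the other libraries. The 7 mature neuron markers summed to 5483, 1809, 1949 and 642 in astrocyte libraries a to d, against 279 to 409 in progenitors and 262 to 496 in stem cells. Most of the astrocyte sums was Camk2a, at 4052, 1473, 1498 and 460 CPM. Prox1 went the other way, at 132 to 184 CPM in progenitors against 14.8 to 121 CPM in astrocytes. Rbfox3 overlapped between these 2 cell types (11.5 to 38.1 and 0.790 to 66.2 CPM). The 5 mature oligodendrocyte markers summed to 2901, 1288, 607 and 214 in astrocyte libraries a to d, against 94.0 to 131 in progenitors and 72.2 to 469 in stem cells, and the 5 interneuron markers to 184 in astrocyte library b and at most 31.8 elsewhere. The part that these cells play in the receptor values was not tested. In addition, with 50 sorted cells in each library, fewer cells that transcribe a gene and less RNA per cell cannot be told apart.

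Members were found in different numbers of libraries in the 3 cell types. Between 36 and 39 of the 42 members had at least 10 counts in a progenitor library, compared with 27 to 30 in a stem cell library and 22 to 30 in an astrocyte library. After thinning all libraries to 5031166 counts, the ranges were 36 to 38, 25 to 30 and 22 to 30. At least 10 counts in all 4 libraries were found for 33 members in progenitors (78.6%, against 82.2% of all 16119 genes), 19 in stem cells (45.2%, against 62.9%) and 15 in astrocytes (35.7%, against 37.0%). In astrocytes, 13 members owed at least 80% of their summed CPM to 1 library (31.0%, against 26.3% of all genes). The same was true of 6 members in stem cells and 2 in progenitors (14.3% and 4.76%, against 9.49% and 2.03%). Thus an astrocyte mean often stands for a single library, and values are given for each library below.

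**Figure D1:**
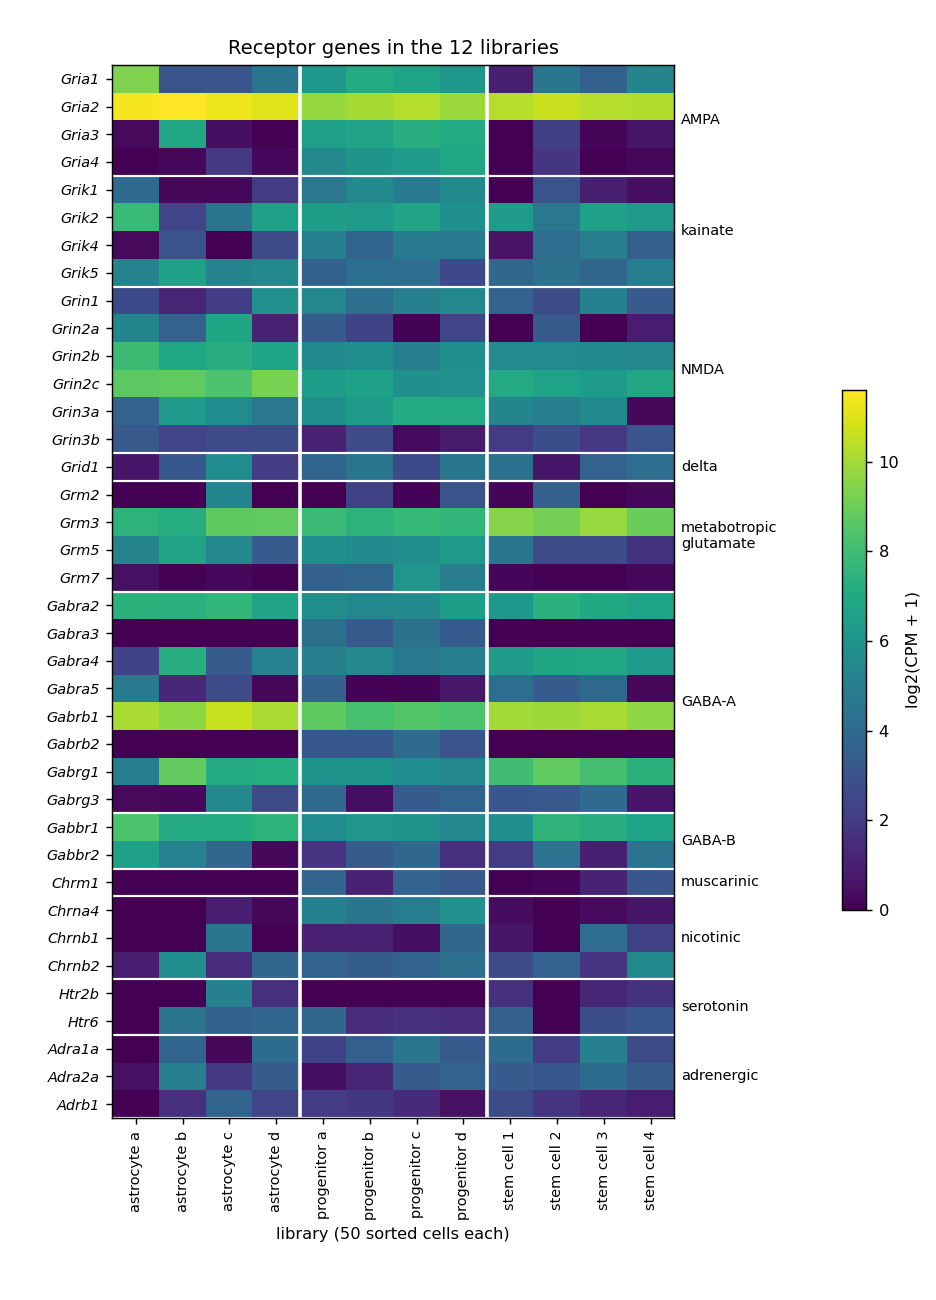
Heat map of log2(CPM + 1) for 38 of the 42 members (rows, by receptor family) in the 12 libraries (columns, 50 sorted cells each), with white lines between cell types and between families. Gria2, Gabrb1 and Grm3 are bright in all 12 libraries, whereas Gabra3 and Gabrb2 have counts only in the 4 progenitor libraries.

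The 3 pairs of cell types were tested one by one, each over all genes with enough counts, by the quasi-likelihood test of edgeR, and a member was called at a Benjamini-Hochberg adjusted p under 0.05. Every cell type enters 2 of the 3 comparisons, which therefore share libraries and are not independent. Of 39 members tested between astrocytes and progenitors, 5 were called higher in astrocytes (12.8%, against 2.45% of all 14806 genes tested) and 7 higher in progenitors (17.9%, against 6.18%). Of 40 tested between progenitors and stem cells, 8 were called higher in progenitors (20.0%, against 4.95% of all 15427 genes) and 4 higher in stem cells (10.0%, against 3.66%). Of 30 tested between astrocytes and stem cells, 0 were called in either direction, where the backgrounds were 0.0468% and 0.0% of 12831 genes. In this last comparison 4 members had an unadjusted p under 0.05, and DESeq2 called 3 members higher in astrocytes (against 2.81% of all genes) and 0 higher in stem cells (against 2.14%). In all, 18 members were called in at least 1 comparison. By cell type, progenitors also had the higher sums of the oligodendrocyte precursor and immature neuron markers given above. Astrocytes had higher sums of mature neuron markers, mostly Camk2a, than progenitors or stem cells, and higher sums of mature oligodendrocyte markers than progenitors. Whether the called members followed these sums from library to library was not tested. The part of such cells in these calls was not tested.

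A count of calls reads differently when a gene was tested only because 1 cell type had it. Of the 7 members called higher in progenitors than in astrocytes, 6 reached 10 counts in no astrocyte library, and 5 of the 8 called against stem cells reached 10 counts in no stem cell library. These genes passed the filter through progenitors alone and had to differ. Libraries of the 2 cell types did not overlap for 7 members higher in astrocytes and 9 higher in progenitors (5.84% and 15.2% of all genes tested). Between progenitors and stem cells, 13 members were higher in progenitors without overlap and 4 higher in stem cells (11.8% and 7.5%), and between astrocytes and stem cells 4 were higher in astrocytes and 1 in stem cells (3.69% and 6.28%). The median log2 fold change of the members was 0.45 for astrocytes over progenitors (0.03 for all genes), 0.15 for progenitors over stem cells (0.04) and 0.55 for astrocytes over stem cells (0.14).

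AMPA receptors carry most fast excitatory transmission, and all 4 of their subunit genes were members. Gria2 encodes the subunit that keeps most AMPA channels closed to calcium. It reached 2790, 3107, 2536 and 2069 CPM in astrocyte libraries a to d, 884, 1061, 1284 and 936 CPM in progenitor libraries a to d, and 1256, 1642, 1255 and 1218 CPM in stem cell libraries 1 to 4. Every astrocyte library therefore exceeded every library of the other cell types. On the log2 scale astrocytes exceeded progenitors by 1.33 (SE 0.20, edgeR adjusted p = 0.0073), a call kept in all 8 fits that left out a library. Over stem cells the difference was 0.96 (SE 0.21), which was not called by edgeR (adjusted p = 0.092) but was by DESeq2 (adjusted p = 0.023). The DESeq2 values of Gria2, Grin2b and Grin2c against stem cells were picked out after all values were seen. An edgeR fit of all 12 libraries also called these genes (adjusted p = 0.018, 0.047 and 0.011).

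Gria3 and Gria4, the genes for GluA3 and GluA4, showed the opposite arrangement. Gria3 was at 96.3, 103, 158 and 137 CPM in progenitors a to d and at 0, 3.52, 0.125 and 0.557 CPM in stem cells 1 to 4, while in astrocytes it was at 0.213, 119, 0.395 and 0 CPM. Only astrocyte library b, the one with the highest sum of interneuron markers, lay within the range of the progenitors. Gria4 was at 43.3, 63.3, 84.8 and 119 CPM in progenitors, whereas astrocytes were at 0, 0.183, 2.96 and 0.204 CPM and stem cells at 0, 2.61, 0 and 0.186 CPM. Progenitors exceeded stem cells by a log2 fold change of 6.85 for Gria3 (SE 1.03, edgeR adjusted p = 0.0037) and 6.74 for Gria4 (SE 1.22, edgeR adjusted p = 0.0084). For both genes only stem cell library 2 reached 10 counts, so the progenitor libraries met the filter, which favoured this direction. With all 12 libraries in one edgeR fit neither was called (adjusted p = 0.15 and 0.063). Compared with astrocytes, Gria4 was called (edgeR log2 fold change of astrocytes over progenitors -6.48, SE 1.41, adjusted p = 0.018), though not without progenitor library c or d (adjusted p = 0.052 and 0.060). Here too the progenitor libraries met the filter, as only astrocyte library c reached 10 counts. Gria3 was not called against astrocytes (edgeR adjusted p = 0.62), but without astrocyte library b the value was -9.15 (SE 1.02, edgeR adjusted p = 0.0046). The remaining astrocyte libraries were all under 10 counts, so that fit tested Gria3 through progenitors alone and its direction was fixed.

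Gria1, the gene for GluA1, likewise turned on 1 astrocyte library. It was at 652, 7.12, 7.31 and 22.1 CPM in astrocytes, 72.9, 138, 105 and 69.8 CPM in progenitors, and 1.03, 22.7, 11.3 and 37.5 CPM in stem cells. Astrocyte library a, which among astrocytes also had the highest sums of mature neuron, mature oligodendrocyte, oligodendrocyte precursor and immature neuron markers, stood above all other libraries, and the remaining astrocyte libraries stood below all progenitors. Its precursor sum was mostly Pdgfra (270 CPM), with Sox10 at 0.426 and Gpr17 at 0.213 CPM. Its immature neuron sum came from Neurod1, Sox11 and Neurod2 (117, 108 and 69.2 CPM), with Dcx at 0.213 and Eomes at 0 CPM. Astrocytes over progenitors gave a log2 fold change of 0.79 with this library (SE 1.26, edgeR adjusted p = 0.82) and -2.97 without it (SE 0.65, edgeR adjusted p = 0.026). Progenitors and stem cells did not overlap, but the difference was not called in the main fit (log2 fold change 2.37, SE 0.79, edgeR adjusted p = 0.10). EdgeR called it without stem cell library 1 (1.97, adjusted p = 0.040) and with at least 10 counts in every library (adjusted p = 0.036). DESeq2 called it with all libraries (adjusted p = 0.011).

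Levels of different genes were compared as CPM per kilobase of exons. On this scale Gria2 made up 96.5% ± 3.07 (SD, n = 4) of the stem cells' AMPA level, 88.1% ± 17.2 (SD, n = 4) for astrocytes and 62.2% ± 3.79 (SD, n = 4) in progenitors. Gria1, Gria3 and Gria4 held 14.8% ± 4.02, 11.6% ± 1.68 and 11.4% ± 4.57 (SD, n = 4) in progenitors. In stem cells the corresponding means were 3.30%, 0.102% and 0.102%. The share of Gria2 was between 57.6% and 66.4% in progenitors and between 92.6% and 99.8% in stem cells, so that these 2 cell types did not overlap, while astrocyte libraries spanned 62.4% to 99.0%.

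**Figure D2:**
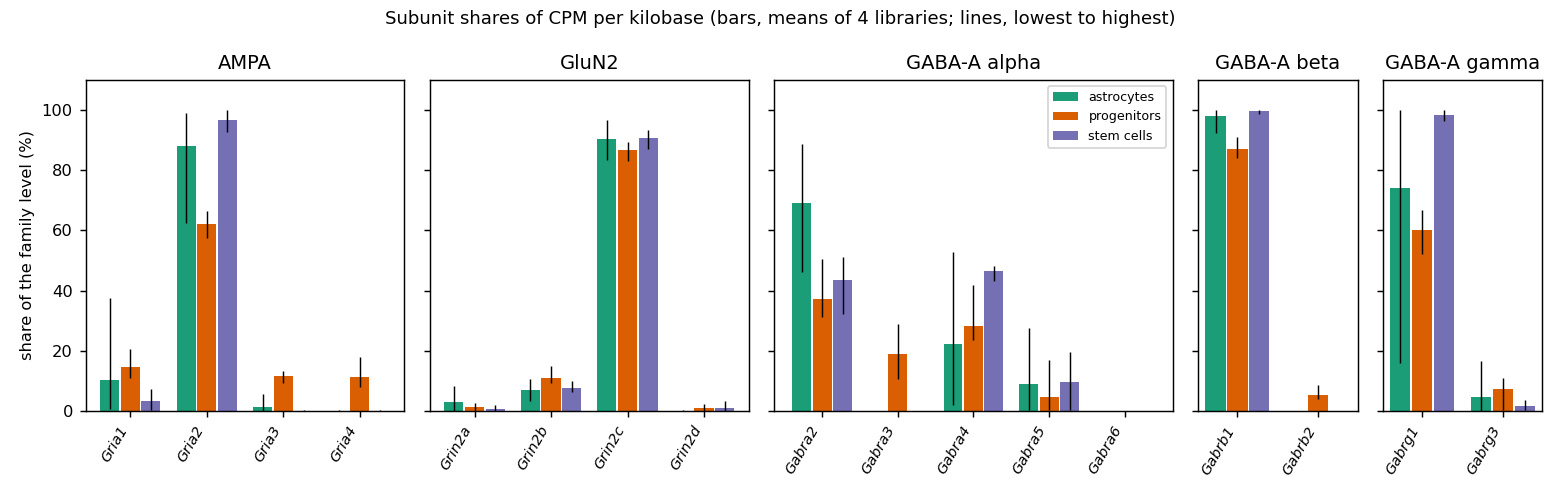
Share (%) of subunits in the level of its family, taken as CPM per kilobase of exons, for AMPA, GluN2 and GABA-A alpha, beta and gamma subunits. Bars are means of 4 libraries and lines run from the lowest to the highest library; Gria2 is at 62.2% in progenitors and 96.5% in stem cells, and Gabra3 and Gabrb2 have bars only in progenitors.

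The promoters of Gria2 and Gria4 are shown because these 2 genes of 1 family had opposite patterns. Each sequence is the 250 bases before the gene's start in RefSeq on GRCm38.p6, written 5′ to 3′ on the gene's strand, and holds no exon of the gene annotation used. Capitals mark an E-box, CAGNTG or its complement CANCTG, the kind of site that neurogenic bHLH factors bind. The Gria2 window is chr3:80802836-80803085 and the Gria4 window is chr9:4796235-4796484, both on the minus strand.
Gria2: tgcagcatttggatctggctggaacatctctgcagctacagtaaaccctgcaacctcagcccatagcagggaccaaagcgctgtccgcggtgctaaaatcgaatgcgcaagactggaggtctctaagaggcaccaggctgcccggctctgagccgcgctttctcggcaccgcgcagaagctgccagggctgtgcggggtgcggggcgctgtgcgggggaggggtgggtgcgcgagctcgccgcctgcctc
Gria4: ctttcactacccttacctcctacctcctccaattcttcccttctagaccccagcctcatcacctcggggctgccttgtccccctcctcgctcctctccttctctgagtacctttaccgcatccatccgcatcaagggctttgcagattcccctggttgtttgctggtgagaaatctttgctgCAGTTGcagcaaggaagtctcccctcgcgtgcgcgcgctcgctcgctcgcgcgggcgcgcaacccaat
The Gria4 window held 1 E-box and the Gria2 window 0, and both were rich in CpG, with 16 and 19 CpG dinucleotides. An E-box was present in 26.5% of the 34 promoters of the 28 members with an entry and in 44.8% of all 32851 promoters of that length. Neither a cAMP response element (TGACGTCA) nor the NFI palindrome (TTGGC and GCCAA with 5 bases between them) was present in any of the 34, where all promoters held them in 1.55% and 0.0365%. Both strands were searched, and a match describes letters only.

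No kainate receptor gene was called by edgeR in the 3 comparisons. Grik2, which encodes GluK2 and was the highest kainate gene per kilobase over the 12 libraries, was at 225, 4.38, 21.9 and 97.4 CPM in astrocytes, 90.6, 79.8, 110.1 and 55.0 CPM in progenitors and 83.6, 24.0, 98.8 and 73.6 CPM in stem cells. The 3 ranges overlapped, and no comparison was called (edgeR adjusted p between 0.84 and 0.99). Grik5, the gene for the auxiliary-type subunit GluK5, was at 35.1, 98.1, 35.6 and 42.7 CPM in astrocytes, above all progenitors at 11.3, 17.96, 17.1 and 4.90 CPM and all stem cells at 13.4, 19.6, 13.3 and 30.1 CPM. Despite the lack of overlap, edgeR called it neither against progenitors (log2 fold change 2.05, SE 0.80, adjusted p = 0.18) nor against stem cells (1.46, SE 0.81, adjusted p = 0.65), though DESeq2 called the former (adjusted p = 0.0078). Grik1 and Grik4 had means of 34.4 and 24.4 CPM in progenitors, against 4.80 and 3.12 CPM in astrocytes. In stem cells the means were 2.04 and 14.1 CPM. DESeq2 called Grik1 higher in progenitors than in stem cells (adjusted p = 0.0019). Leaving out 1 library gave an edgeR call for Grik1, with -4.89 for astrocytes over progenitors without astrocyte library a (SE 1.28, edgeR adjusted p = 0.044, against 0.30 with it) and 6.17 for progenitors over stem cells without stem cell library 2 (SE 1.08, edgeR adjusted p = 0.011, against 0.077). In the latter fit the remaining stem cell libraries were all under 10 counts, so that Grik1 was tested through progenitors alone and its direction was fixed. Grik3 was below the minimum, with 113 counts in progenitor library d and at most 9 in any other.

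NMDA receptors need the GluN1 subunit encoded by Grin1 together with GluN2 or GluN3 subunits, which set their kinetics and magnesium block. Grin2c, whose product GluN2C is known from cerebellar granule cells and astrocytes, was at 409, 437, 315 and 619 CPM in astrocytes, 87.5, 99.3, 55.2 and 56.7 CPM in progenitors and 134, 104, 81.7 and 122 CPM in stem cells. The lowest astrocyte library was above the highest of all other libraries. Astrocytes exceeded progenitors by a log2 fold change of 2.57 (SE 0.37, edgeR adjusted p = 0.0063), called in all 8 fits without a library. They exceeded stem cells by 2.003 (SE 0.35), which edgeR did not call (adjusted p = 0.092) and DESeq2 did (adjusted p = 1.38e-05).

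Grin2b, for the GluN2B subunit typical of young neurons, was at 249, 119, 149 and 105 CPM in astrocytes. Progenitors were at 46.2, 54.0, 29.8 and 50.6 CPM and stem cells at 46.9, 47.4, 45.5 and 40.7 CPM, so that only astrocytes stood apart. Astrocytes were above progenitors by 1.78 on the log2 scale (SE 0.47, edgeR adjusted p = 0.044), which remained past the threshold in 3 of the 8 fits without a library (adjusted p up to 0.15), and was lost with no count filter (0.13) and with at least 10 counts in every library (0.10). Against stem cells it was also 1.78 (SE 0.50, edgeR adjusted p = 0.18), which DESeq2 called (adjusted p = 0.0025). In the length-scaled GluN2 level, Grin2c held 90.2% ± 6.21 in astrocytes, 86.8% ± 2.58 in progenitors and 90.7% ± 3.07 in stem cells (SD, n = 4). These ranges overlapped between all 3 cell types.

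Grin1 stood low beside Grin2c. Per kilobase, the ratio of Grin2c to Grin1 was 154, 659, 181 and 20.8 in astrocyte libraries a to d, 4.15, 10.4, 3.33 and 2.75 in progenitors and 22.5, 37.3, 4.69 and 26.3 in stem cells. All astrocyte ratios were above all progenitor ratios, and Grin1 itself was called in no comparison, with means of 16.8, 32.6 and 14.8 CPM in astrocytes, progenitors and stem cells. Grin1 had 7 to 24 counts in astrocyte libraries a to c, so that their ratios rest on few reads. Library d had 281 counts (57.4 CPM) and made up most of the astrocyte mean. Of the exonic bases of Grin1, 13.5% are shared with Grin1os on the other strand, and reads were counted without regard to strand. The genes of the glycine-binding GluN3 subunits, Grin3a and Grin3b, were not called either. Grin3a had a mean of 103 CPM in progenitors, all 4 of which were above all stem cell libraries (mean 28.3 CPM, edgeR adjusted p = 0.28).

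The promoter of Grin2c is shown as that of the member with the largest called difference in favour of astrocytes. The window is chr11:115267244-115267493 on the minus strand of GRCm38.p6, directly before the first annotated exon.
Grin2c: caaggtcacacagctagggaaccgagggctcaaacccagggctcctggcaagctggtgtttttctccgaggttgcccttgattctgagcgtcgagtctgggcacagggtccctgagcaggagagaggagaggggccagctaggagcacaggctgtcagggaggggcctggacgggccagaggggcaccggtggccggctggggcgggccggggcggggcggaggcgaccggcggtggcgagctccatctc
It was 68.8% G and C, against a median of 61.6% over the members' promoters and 52.4% over all promoters, and held none of the 3 motifs.

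**Figure D3:**
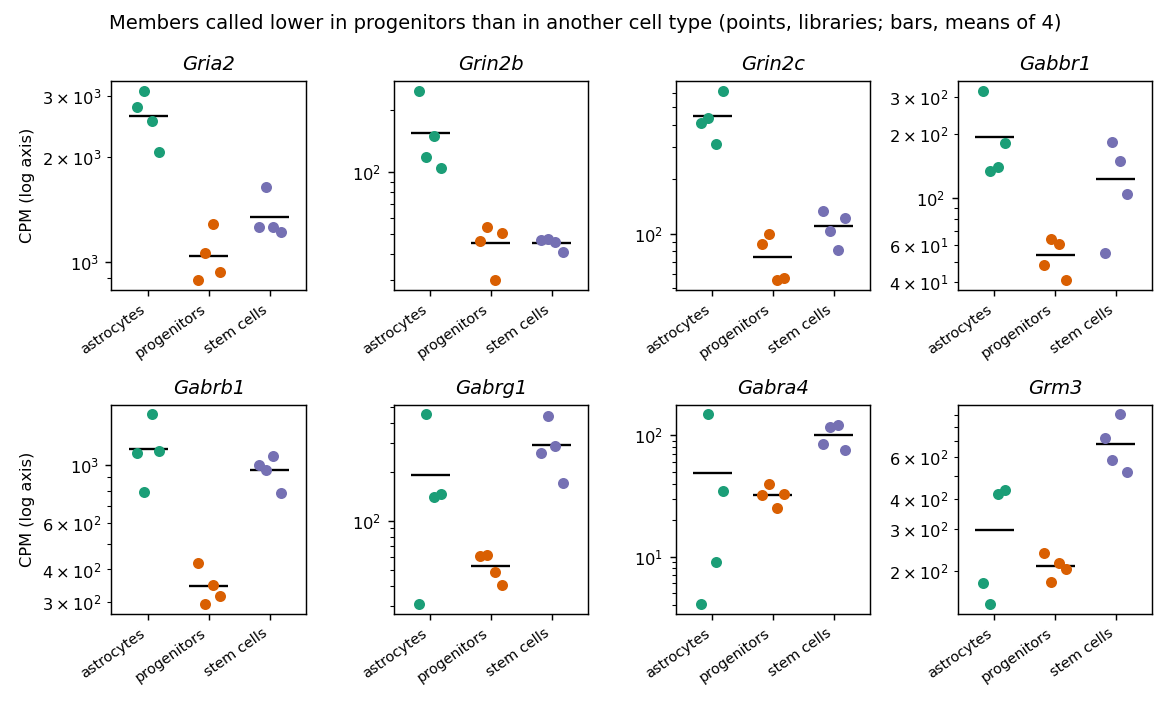
CPM on a log axis for the 8 members called lower in progenitors than in astrocytes or stem cells; points are libraries and bars are means of 4. Gria2, Grin2b and Grin2c are highest in astrocytes and Grm3 in stem cells, while Gabrb1 overlaps between astrocytes and stem cells and is lower in all 4 progenitor libraries.

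Delta receptors resemble ionotropic glutamate receptors but work mainly as synaptic organizers. Grid1 was at 0.639, 8.22, 48.8 and 3.27 CPM in astrocytes, 12.48, 21.6, 5.17 and 22.1 CPM in progenitors and 19.9, 0.652, 11.4 and 16.7 CPM in stem cells. These ranges overlapped, and Grid1 was called in no comparison.

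Among metabotropic glutamate receptors, Grm3 was the highest per kilobase in all 3 cell types. It encodes mGluR3, which couples to inhibitory G proteins and is the main such receptor of adult astrocytes. Stem cells 1 to 4 were at 719, 582, 906 and 518 CPM, astrocytes at 178, 145, 421 and 437 CPM and progenitors at 238, 179, 215 and 204 CPM. All stem cell libraries were above all others. The difference from progenitors was called (log2 fold change of progenitors over stem cells -1.74, SE 0.20, edgeR adjusted p = 0.0012, past the threshold in 8 of 8 fits without a library). The difference from astrocytes was not (astrocytes over stem cells, log2 fold change -1.21, SE 0.41, edgeR adjusted p = 0.28; DESeq2 adjusted p = 0.21). In mean CPM per kilobase, Grm3 was the highest of all members in stem cells, at 223 ± 56.4 (SD, n = 4), and in progenitors, at 68.6 ± 8.05, where Gria2 at 67.0 ± 11.5 lay within this spread. In astrocytes it was at 96.8 ± 50.9, below Gria2 at 169 ± 28.2. This ranking depends on length. In mean CPM, Gria2 exceeded Grm3 in stem cells (1343 against 681) and in progenitors (1041 against 209).

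Grm5 and Grm7 were higher in progenitors than in stem cells. Grm5, for the Gq-coupled mGluR5, was at 54.4, 44.4, 52.2 and 77.7 CPM in progenitors and 22.7, 5.47, 5.38 and 2.23 CPM in stem cells, with astrocytes spread from 8.99 to 107 CPM (34.9, 107, 43.5 and 8.99). Its log2 fold change over stem cells was 2.64 (SE 0.67, edgeR adjusted p = 0.038), which was lost in 7 of 8 fits without a library, with adjusted p-values of up to 0.11, and with all 12 libraries in one fit (0.175). Grm7, for the presynaptic receptor mGluR7, was at 11.2, 12.3, 65.2 and 27.9 CPM in progenitors. It had 3 counts in all astrocyte libraries together and 2 in all stem cell libraries. The ratio of counts per total was 184 (95% exact interval 62.7 to 891) against astrocytes and 421 (116 to 3483) against stem cells. These intervals pool the libraries of a cell type, so they leave out the spread between libraries. They also take reads as independent, although without molecular identifiers reads copied from the same molecule could not be told apart. Both differences were called (edgeR adjusted p = 0.016 and 0.0027), the first of them not without progenitor library c (adjusted p = 0.054). Grm7 passed the filter through progenitors alone in both comparisons, so its direction was fixed. Grm2 reached 10 counts in 4 libraries over the 3 cell types, with 184 of its counts in astrocyte library c, and Grm4, Grm6 and Grm8 were below the minimum.

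Gabrb1, which encodes the beta-1 subunit, was the highest GABA-A gene per kilobase in all 3 cell types. It was at 1117, 788, 1564 and 1133 CPM in astrocytes, 422, 295, 348 and 317 CPM in progenitors and 1003, 956, 1079 and 783 CPM in stem cells. Every progenitor library was below every other library, and the astrocyte and stem cell ranges overlapped. Progenitors were lower than astrocytes (log2 fold change of astrocytes over progenitors 1.74, SE 0.27, edgeR adjusted p = 0.0090) and lower than stem cells (progenitors over stem cells -1.50, SE 0.17, edgeR adjusted p = 0.00097), and both were called in all 8 fits without a library. Astrocytes over stem cells gave 0.26 (SE 0.25, edgeR adjusted p = 0.83).

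Gabrg1 and Gabra4, the genes for the gamma-1 and alpha-4 subunits, were called between progenitors and stem cells. Gabrg1 was at 261, 442, 287 and 172 CPM in stem cells and 60.6, 62.2, 48.3 and 40.4 CPM in progenitors (log2 fold change of progenitors over stem cells -2.49, SE 0.30, edgeR adjusted p = 0.0013, or 0.052 with all 12 libraries in one fit). Astrocytes were at 30.9, 451, 141 and 146 CPM, and were not called above progenitors (edgeR log2 fold change 1.87, SE 0.70, adjusted p = 0.16) unless library a, the low one, was left out (2.23, adjusted p = 0.025). Gabra4 was at 85.4, 116, 122 and 76.0 CPM in stem cells and 32.1, 40.0, 25.04 and 32.7 CPM in progenitors (log2 fold change of progenitors over stem cells -1.66, SE 0.27, edgeR adjusted p = 0.0055), a call that was lost with all 12 libraries in one fit (adjusted p = 0.60). Astrocytes, at 4.05, 149, 9.09 and 34.7 CPM, lay on both sides of the other cell types.

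Gabra2, for the alpha-2 subunit, was at 172, 164, 202 and 109 CPM in astrocytes, 52.0, 41.6, 42.4 and 87.7 CPM in progenitors and 71.9, 168, 132 and 104 CPM in stem cells. Astrocytes and progenitors did not overlap. It was called by edgeR neither against progenitors (log2 fold change of astrocytes over progenitors 1.53, SE 0.45, adjusted p = 0.070) nor between progenitors and stem cells (-1.12, SE 0.34, adjusted p = 0.077), while DESeq2 called both (adjusted p = 0.0050 and 0.025). Leaving out astrocyte library d, progenitor library d or stem cell library 1 brought edgeR's adjusted p to 0.047, 0.048 and 0.049. With all 12 libraries in one fit, edgeR called astrocytes over progenitors (adjusted p = 0.035).

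The genes of the alpha-3 and beta-2 subunits had counts in progenitors alone. Gabra3 was at 18.6, 9.19, 19.6 and 9.46 CPM and Gabrb2 at 8.23, 8.27, 15.8 and 7.31 CPM in progenitors, and neither had a count in any astrocyte or stem cell library. Against a floor of 3 counts in each library, Gabra3 was at least 23.8-fold higher in progenitors than in astrocytes and at least 34.8-fold higher than in stem cells, and Gabrb2 at least 16.6-fold and 24.3-fold. These bounds set the progenitor mean against the floor and leave out the spread between libraries. They also take reads as independent, although the libraries carried no molecular identifiers. Both were called in both comparisons, with edgeR adjusted p-values of 0.016 against astrocytes and of 0.0050 and 0.0064 against stem cells. They were tested only because progenitors had them, so their direction was fixed. With no count filter, Gabrb2 was not called against astrocytes (adjusted p = 0.061).

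**Figure D4:**
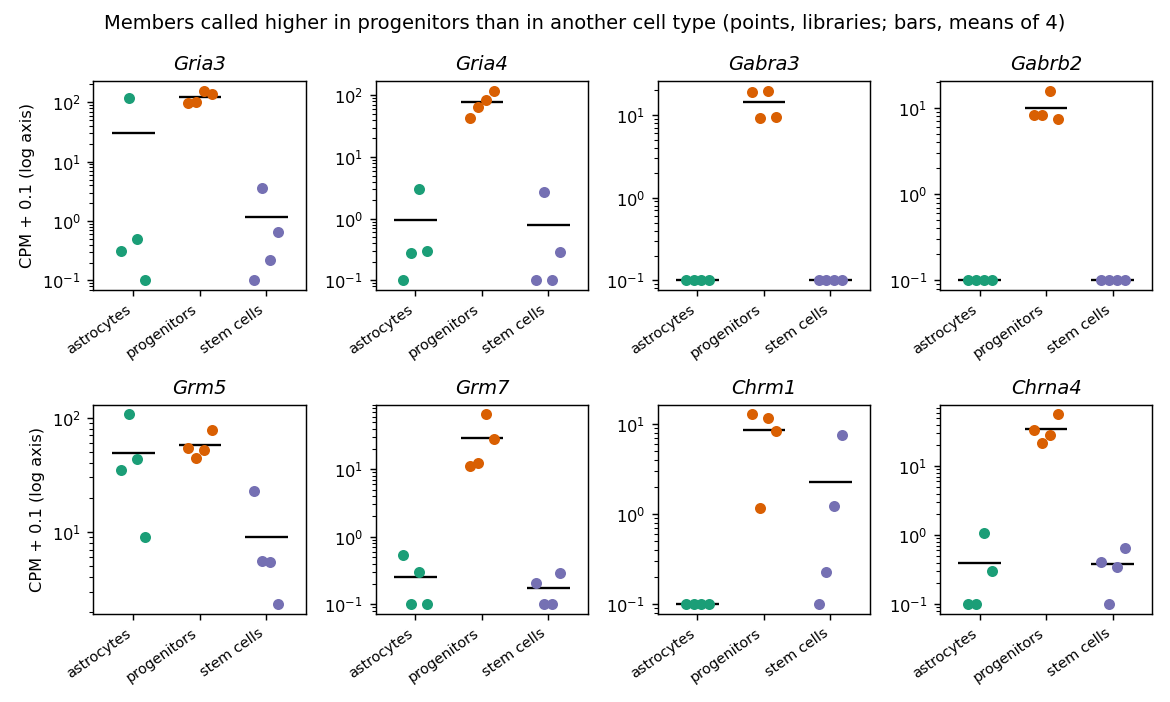
CPM plus 0.1 on a log axis for 8 members called higher in progenitors than in astrocytes or stem cells; points are libraries and bars are means of 4. Gabra3 and Gabrb2 sit at 0 CPM in all 8 other libraries, and 1 astrocyte library reaches progenitor levels for Gria3 (119 CPM).

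Many GABA-A genes lie in clusters. The cluster on chromosome 5 holds Gabrg1, Gabra2, Gabra4 and Gabrb1 within 1398 kb. Taken per kilobase, its genes made up 92.2% ± 9.95 of the GABA-A level in astrocytes, 96.8% ± 1.73 in stem cells, but 74.9% ± 3.51 in progenitors (SD, n = 4). All progenitor libraries, at 69.9% to 77.8%, were below the lowest astrocyte library at 78.4% and the lowest stem cell library at 95.2%. Gabra4 and Gabrb1 start next to each other on opposite strands and share 196 exonic bases, reads over which could not be told apart.

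Gabra3 lies on the X chromosome between Gabre and Gabrq, which were below the minimum. Together these 3 genes made up 6.18% ± 2.19 of the GABA-A level in progenitors (SD, n = 4). Gabra5 and Gabrg3 were called in no comparison. Within alpha subunits, Gabra2 and Gabra4 held 37.0% ± 9.03 and 28.3% ± 9.09 in progenitors and Gabra3 19.0% ± 7.94 (SD, n = 4). In stem cells, Gabra2 and Gabra4 held 43.4% ± 8.77 and 46.4% ± 2.16. Within gamma subunits, Gabrg1 held 98.2% ± 1.42 in stem cells and 60.1% ± 7.48 in progenitors. Gabra6 had no count in any library. The delta subunit gene Gabrd, which is typical of extrasynaptic receptors of mature granule cells, had 3 counts in astrocyte library d, 5 in stem cell library 3 and 0 elsewhere.

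The promoter of Gabrg1 is shown as that of the chromosome 5 gene with the largest called difference. It spans chr5:70842618-70842867 on the minus strand of GRCm38.p6 and ends at the first annotated exon.
Gabrg1: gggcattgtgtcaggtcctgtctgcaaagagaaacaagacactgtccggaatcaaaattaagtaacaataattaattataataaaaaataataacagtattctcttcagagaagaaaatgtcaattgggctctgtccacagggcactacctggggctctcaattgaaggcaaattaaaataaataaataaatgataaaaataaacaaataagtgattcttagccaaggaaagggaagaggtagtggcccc
At 35.6% G and C with 1 CpG, it lay far from the median of the members' promoters, which was 61.6% with 11 CpG dinucleotides, and it held none of the 3 motifs.

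GABA-B receptors are G protein-coupled and need the products of Gabbr1 and Gabbr2 together. Gabbr1 was at 322, 134, 140 and 183 CPM in astrocytes, 48.6, 64.4, 60.6 and 40.8 CPM in progenitors and 55.1, 183, 150 and 105 CPM in stem cells. All astrocyte libraries were above all progenitors, whereas stem cell library 1 lay among the progenitors. Astrocytes exceeded progenitors by 1.85 on the log2 scale (SE 0.44, edgeR adjusted p = 0.026), past the threshold in 4 of 8 fits without a library, with adjusted p-values of 0.068 to 0.10 when a progenitor library was left out. It was lost with no count filter (0.092) and with at least 10 counts in every library (0.067). Stem cells were called above progenitors by DESeq2 (adjusted p = 0.015) but not by edgeR in the main fit (adjusted p = 0.064). EdgeR called it when library 1 was left out (progenitors over stem cells -1.48, adjusted p = 0.018) and with at least 10 counts in every library (adjusted p = 0.049). Gabbr2 was called in no comparison and had means of 36.3 ± 43.3, 6.93 ± 5.85 and 11.2 ± 10.6 CPM in astrocytes, progenitors and stem cells (SD, n = 4).

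Few receptors for acetylcholine and monoamines reached the minimum. Chrna4 encodes the alpha-4 subunit of the commonest brain nicotinic receptor and was at 32.8, 21.6, 28.3 and 56.6 CPM in progenitors, 0, 0, 0.988 and 0.204 CPM in astrocytes and 0.308, 0, 0.250 and 0.557 CPM in stem cells. Progenitors exceeded stem cells (log2 fold change 6.91, SE 0.92, edgeR adjusted p = 0.0021) and astrocytes (astrocytes over progenitors -6.78, SE 1.51, edgeR adjusted p = 0.020), the latter not without progenitor library a, c or d (adjusted p = 0.051, 0.053 and 0.068). In both comparisons Chrna4 passed the filter through progenitors alone, so its direction was fixed. The partner gene Chrnb2 was found in all 3 cell types, with means of 16.6, 13.1 and 16.5 CPM in astrocytes, progenitors and stem cells, although 16.3% of its exonic bases overlap Adar. Chrnb1, the muscle-type beta subunit gene, had 111 of its astrocyte counts in library c and 0 in the other 3. The other 13 of 16 nicotinic genes, Chrna7 among them, were below the minimum.

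Chrm1, the only muscarinic member, encodes the Gq-coupled M1 receptor. It was at 12.8, 1.09, 11.7 and 8.34 CPM in progenitors, had no count in astrocytes and was at 0, 0.130, 1.13 and 7.43 CPM in stem cells. It was at least 14.2-fold higher in progenitors than in astrocytes (edgeR adjusted p = 0.021), a call lost without progenitor library a, c or d (adjusted p = 0.051, 0.059 and 0.060) and with no count filter (0.078). In this comparison Chrm1 passed the filter through progenitors alone, so its direction was fixed. The bound sets the progenitor mean against the floor of 3 counts and leaves out the spread between libraries. The difference between progenitors and stem cells was not called (edgeR adjusted p = 0.54), and 5.1% of its exonic bases overlap Gm22820.

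Of 14 serotonin receptor genes, Htr6 and Htr2b were members. Htr6 was at 0, 21.4, 11.1 and 12.7 CPM in astrocytes, 13.2, 1.75, 2.03 and 1.81 CPM in progenitors and 10.4, 0, 5.88 and 7.99 CPM in stem cells, with overlap between all cell types. Htr2b had 164 counts in astrocyte library c, 10 in astrocyte library d, 0 in every progenitor library and 42 in stem cells. Htr1a, a receptor much studied in DG neurogenesis, had no count in any library.

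Among the 9 adrenergic receptor genes, Adra2a was the highest per kilobase over the 12 libraries. It was at 0.426, 31.6, 2.96 and 9.39 CPM in astrocytes, 0.343, 1.34, 9.42 and 11.8 CPM in progenitors and 8.93, 8.21, 16.0 and 8.91 CPM in stem cells. Adra1a had means of 7.23, 11.1 and 14.3 CPM in the same order and Adrb1 4.69, 1.96 and 2.58 CPM, and none of the 3 was called in any comparison. All 5 dopamine receptor genes were below the minimum. Drd1 had 122 counts in progenitor library a and 0 in all others, and Drd5 had 33, 55 and 64 counts in progenitor libraries b, c and d and 0 elsewhere.

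In total, 22 of the 93 genes had no count in any library, among them Chrm2, Grm6 and Grm8. For these a receptor transcript was not detectable at this depth. By counting error alone, 3 counts are the limit that a count of 0 allows in a library.

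Genes that work with the receptors were taken from lists of partners and read from the same fits, where 2.45% of all genes tested were called higher in astrocytes and 6.18% higher in progenitors, and, against stem cells, 4.95% higher and 3.66% lower in progenitors. Of 14 auxiliary subunits of AMPA and kainate receptors, 11 were tested between astrocytes and progenitors and 2 were called, both higher in progenitors. Cacng4, an AMPA receptor trafficking subunit, had a mean of 44.7 CPM in progenitors and 1 count in all astrocyte libraries together (edgeR adjusted p = 0.0080), and Shisa9 had a mean of 7.38 CPM and 0 counts (edgeR adjusted p = 0.017). Both were tested only because progenitors had them, so their direction was fixed. None of the 9 tested between progenitors and stem cells was called.

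Of 22 excitatory scaffold and signalling genes, Camk2a and Shank1 were called higher and Nlgn3 lower in astrocytes than in progenitors. Camk2a, which encodes a kinase of mature excitatory neurons, has an mRNA that travels into dendrites and was also in the mature neuron list, averaged 1871 ± 1532 CPM (SD, n = 4) among astrocytes and 61.2 ± 13.8 CPM among progenitors (log2 fold change 4.92, SE 0.60, edgeR adjusted p = 0.0028). In stem cells it was at 293 ± 95.9 CPM, above progenitors as well (progenitors over stem cells -2.30, SE 0.29, edgeR adjusted p = 0.0016). Of 10 inhibitory scaffold genes, Gphn, for the GABA-A anchor gephyrin, was called higher in astrocytes than in progenitors (log2 fold change 1.90, SE 0.48, edgeR adjusted p = 0.033). Slitrk3 and Igsf9b, adhesion genes of inhibitory synapses, were called higher in progenitors than in stem cells, Igsf9b with a mean of 100.4 CPM in progenitors and no count in stem cells (edgeR adjusted p = 0.00035), so that it too was tested through progenitors alone.

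Of 25 genes of transmitter synthesis, uptake and breakdown, 14 were tested between progenitors and stem cells, and 1 was called higher and 6 lower in progenitors. The 6 included Slc1a2 and Slc1a3 for glutamate uptake, Slc6a11 for GABA uptake, Glul for glutamine synthesis and Maob for monoamine breakdown. Slc1a3 encodes GLAST, by which the cells were sorted, so its difference is no result. Slc1a2 was at 1983 ± 293 CPM in progenitors and 5992 ± 474 CPM in stem cells (SD, n = 4, log2 fold change -1.63, SE 0.14, edgeR adjusted p = 0.00027). Ache, for acetylcholinesterase, was the one called higher in progenitors, at 36.7 ± 7.97 against 1.53 ± 1.65 CPM (log2 fold change 4.53, SE 0.92, edgeR adjusted p = 0.014). Against astrocytes, Slc1a2, Slc6a11 and Glul were called lower in progenitors and Tph2 higher, the latter with a mean of 9.04 CPM in progenitors and 0 counts in astrocytes, which fixed its direction.

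Of 22 genes of G protein signalling, 5 were called higher in astrocytes than in progenitors and 0 lower, and 3 were called lower in progenitors than in stem cells. Gnao1, for the inhibitory G protein that GABA-B and mGluR3 use, was at 1126 ± 96.2 CPM in astrocytes, 214 ± 17.4 CPM in progenitors and 453 ± 104 CPM in stem cells (SD, n = 4). Both differences from progenitors were called (log2 fold change of astrocytes over progenitors 2.39, SE 0.21, edgeR adjusted p = 0.00054; progenitors over stem cells -1.12, SE 0.19, edgeR adjusted p = 0.0069). Of the chloride transporter genes Slc12a2 and Slc12a5, which set whether GABA depolarizes a cell, 1 was tested and it was not called. In none of the 6 lists did edgeR call a gene between astrocytes and stem cells, where it called 6 of all 12831 genes.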

How the data were processed

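Libraries of 50 sorted cells, 4 for each of 3 cell types, were made by whole-transcript preamplification (SMARTer v4) and Nextera XT. The deposited values are raw read counts per gene. Per the study's methods and the submitters' processing notes, the authors trimmed reads with AdapterRemoval 2.2.0, removed ribosomal, mitochondrial and PhiX reads, aligned to GRCm38.p4 with HISAT2 2.0.6 and counted reads without strand with featureCounts (Subread 1.5.1) on GENCODE M14. No molecular identifiers were used, and reads over overlapping genes could not be separated.

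Symbols and exon lengths came from GENCODE M21. Each pair of cell types was fitted alone in edgeR 4.0.16 (R 4.3.3) with TMM factors and the quasi-likelihood test, over genes that reached 10 counts in 4 or more of the 8 libraries (3 with a library left out). P-values were adjusted over all genes tested by Benjamini-Hochberg, and 0.05 was the threshold. CPM used TMM-scaled totals over all 12 libraries. Shares and exact intervals were computed with scipy 1.17.1, pandas 2.3.3 and numpy 2.4.6 in Python 3.11.15. The fits were tested on simulated data. The alternatives were DESeq2 1.42.0, its size factors in edgeR, other count filters, 1 fit of all 12 libraries, thinning to the smallest library, shares without length and leaving out each library. The authors' coverage-based transcript filter needs base-level coverage and was not run here.

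The members and lists were chosen with earlier results of these data known. Per-library values are given for members that were called, had at least 10 counts in all 12 libraries or were the highest of their family per kilobase; 23 of these 25 are given, since some genes are not reported here. The promoters and motifs were chosen after the values were seen. Promoters came from RefSeq (GRCm38.p6) and were found for 28 of the 42 members and 12 of the 18 called members.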

Additional observations from a re-analysis of the deposited data

Results flagged for a closer look

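For each of the named members in each cell type where it had a count, the 4 libraries were examined for 1 that stood apart from the other 3. A library stood apart when its gap to the nearest other, divided by the range of the 4, passed the 95% limit of Dixon's test, which chance passes in about 1 in 20 groups of normally distributed values. Of 64 gene and cell type pairs, 13 had such a library (20.3%), against 16.9% of 47464 pairs over all genes at the count minimum. In astrocytes, Gria1 stood at 652 CPM in library a, Gria3 at 119.1 CPM and Grik5 at 98.08 CPM in library b, and Gria4 at 2.963 CPM and Grid1 at 48.79 CPM in library c. In progenitors, Htr6 stood at 13.24 CPM in library a and Gabrb2 at 15.8 CPM in library c. In stem cells, Grm5 stood at 22.68 CPM in library 1, Gria2 at 1642 CPM, Gria3 at 3.518 CPM and Gria4 at 2.606 CPM in library 2, Adra2a at 16.01 CPM in library 3 and Chrm1 at 7.429 CPM in library 4. In each of these the library apart was the highest of its cell type.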

How the results depend on the processing

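No alternative turned the direction of a called difference, and thinning to the smallest library and DESeq2-type size factors in edgeR left every count of called members within 1.5 times its value. With no count filter, 3 members were called higher in astrocytes than in progenitors, and with at least 10 counts in every library 3 were higher in astrocytes, 0 higher in progenitors and, against stem cells, 2 higher in progenitors. The latter filter left out every gene under 10 counts in any library compared, including all members called higher in progenitors than in astrocytes. Otherwise the cause was not tested. With all 12 libraries in one fit, 4 members were higher in progenitors than in stem cells, 2 were lower, and 3 were higher in astrocytes than in stem cells, as with DESeq2, which called 3; the cause was not tested. Leaving out 1 library gave 3 to 6 members higher in astrocytes than in progenitors, with 3 without each of the progenitor libraries. It gave 3 to 10 higher in progenitors, with 3 without progenitor library c, 4 without d and 10 without astrocyte library a.

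Members per library averaged 33.25, 40.75 and 35.5 in astrocytes, progenitors and stem cells at 1 count or more, and 19.75, 29.5 and 19.0 at 10 CPM or more. Without length, the shares were 77.8% for Gria2 in progenitors, 68.9%, 59.5% and 68.8% for Grin2c in astrocytes, progenitors and stem cells, 93.4% for Gabrb1 in progenitors and 45.6% for Adra1a of the adrenergic level in progenitors. With 90% in 1 library, a limit chosen after seeing the data, 7, 1 and 3 members were met in astrocytes, progenitors and stem cells. These were 16.7%, 2.38% and 7.14% of the members, against 18.7%, 1.1% and 6.74% of all genes. At this limit the astrocyte share of the members was thus below that of all genes. No paired analysis was possible because the astrocyte and progenitor columns carry no replicate number. A library of 5031166 counts limits what can be seen to about 3 counts, and 50 cells limit it further.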
